A study of Mus musculus with 12 samples.

Results

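Tumor cells sorted from mouse brains were examined for 51 genes of glutathione metabolism, antioxidant defense and the NRF2 response, out of 19938 genes measured. A gene was included when its symbol was Gsta, Gstm, Gstp, Gstt, Gsto, Gpx, Prdx or Txn followed by a digit, or Txnrd, which gave 35 genes including the pseudogene Prdx6-ps2. A further 16 genes were named directly, namely Nfe2l2, Keap1, Nqo1, Hmox1, Gclc, Gclm, Gss, Gsr, Srxn1, Cat, Sod2, Sod3, Mgst1, Mgst3, Ftl1 and Fth1. The choice used no measured value, but results of these data were already known when it was made.

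Cells remove hydrogen peroxide and lipid peroxides with catalase, peroxiredoxins fed by thioredoxin, and glutathione peroxidases fed by glutathione, while superoxide dismutases first turn superoxide into hydrogen peroxide. Glutathione transferases join glutathione to reactive compounds, so that they can be exported. The transcription factor NRF2, encoded by Nfe2l2, is marked for destruction by KEAP1 until oxidants or electrophiles modify KEAP1. NRF2 then binds antioxidant response elements with a small MAF partner and turns on many of these genes, and in the brain this response is best known from astrocytes.

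Each of 12 arrays held RNA of a different FVB mouse, of which 6 bore pEGFR-Hi tumors and 6 bore pEGFR-Lo tumors. Both tumor lines began as neural progenitors of the subventricular zone, taken from mice null for Ink4a/Arf, were given human EGFRvIII, the constitutively active receptor variant of glioblastoma, and were passaged through a brain tumor. They differ in EGFRvIII phosphorylation, which is high in pEGFR-Hi and low in pEGFR-Lo. Cells carrying the fluorescent protein ZsGreen were injected into the brain in 2 µl at 200000 cells per µl and were recovered by digestion, removal of myelin and red blood cells, and sorting of live ZsGreen-positive cells. Each group stands for 1 line, so a p-value reflects the spread among mice and not among lines. Brains were collected near the median survival of each group, which came sooner with pEGFR-Hi, so line and time since injection cannot be told apart.

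Values are log2 expression after RMA, a normalization that gives every array the same distribution, and a difference of 1 is 2-fold. Each gene was fitted in limma, with information on variance shared across genes. A gene was called higher or lower when the limma fit gave a Benjamini-Hochberg adjusted p under 0.01 and the difference was at least 2-fold. All adjusted p-values below come from that fit, SE is its standard error, and intervals are its 95% confidence intervals. Background was set at 4.10, under which 95% of the means of 1027 olfactory receptor genes lay. Pairs of pEGFR-Hi arrays correlated at 0.991 to 0.994 over all genes, pairs of pEGFR-Lo arrays at 0.985 to 0.993, and pairs across the groups at 0.944 to 0.959. Of 11 measured tumor and neural progenitor markers, including Nes, Sox2, Olig2 and Vim, 11 were above background in pEGFR-Hi and 10 in pEGFR-Lo, where Prom1 was not.

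Of the 51 genes, 3 were called higher in pEGFR-Hi, against 3.99% of all genes, and 4 were called lower, against 5.06% of all genes. Together the called genes were 13.7% of the set, beside 9.05% of all genes and 13.0% of the 13783 genes that were above background in a group. Higher in pEGFR-Hi were Gsto1, Gpx3 and Mgst3, and lower were Gstm7, Gstm6, Sod3 and Txn2. A further 6 genes were higher and 7 lower at an adjusted p under 0.01 with less than a 2-fold difference, which made 9 higher (14.7% of all genes) and 11 lower (12.9% of all genes) without the fold limit, where 27.6% of all genes passed in either direction. The 6 and 6 mice did not overlap for 7 genes that were higher and 10 that were lower in pEGFR-Hi (12.2% and 11.1% of all genes). The median difference was -0.06 over the set and 0.01 over all genes. Of the 51 genes, 41 were above background in at least 1 group. The other 10 were Gpx2, Gpx5, Gpx6, Gpx7, Gsta3, Gstm4, Gsto2, Gstp3, Gstt2 and Gstt4, which had differences between -0.35 and 0.33 and are given no fold. Among the 41, 21 had an adjusted p of 0.01 or more, with differences from -0.35 for Nqo1 to 0.40 for Gstt3. As in any sorted bulk sample, fewer cells of a type and less RNA per cell cannot be told apart.

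**Figure D1:**
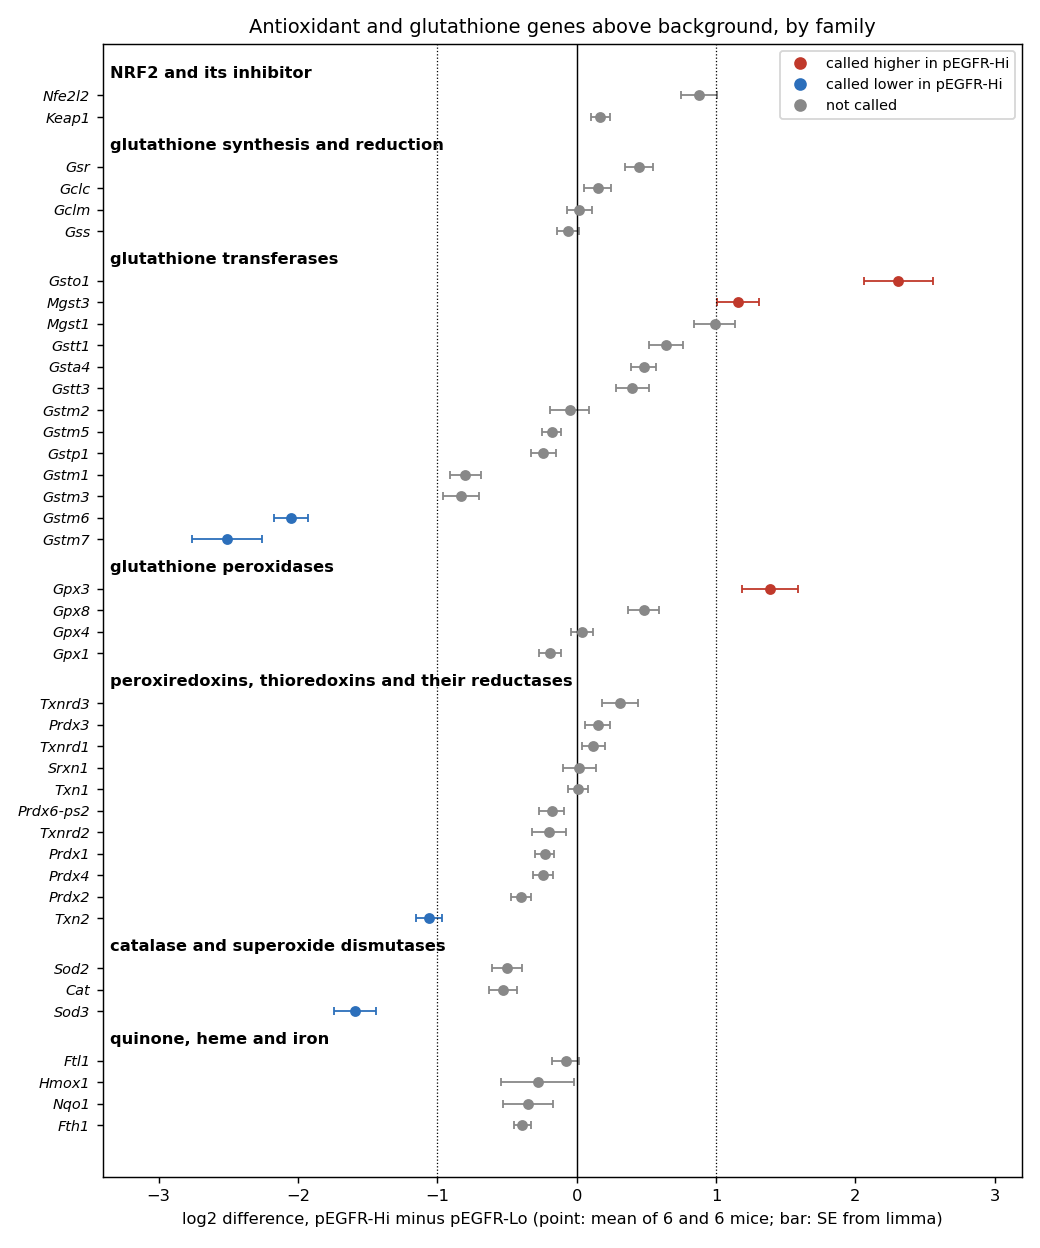
Difference between pEGFR-Hi and pEGFR-Lo on the log2 scale for the 41 genes above background, grouped by role, with the mean of 6 and 6 mice as points and the SE from limma as bars; dotted lines mark 2-fold. Gsto1 (2.31) and Gstm7 (-2.51) lie on opposite sides within the same family of transferases, while Gclm, Srxn1 and Txn1 lie within 0.02 of 0.

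Nfe2l2, the gene of NRF2 itself, was higher in pEGFR-Hi by less than 2-fold. It measured 10.20 at the lowest, 10.46 at the median and 10.61 at the highest in pEGFR-Hi mice, against 9.16, 9.75 and 9.84 in pEGFR-Lo mice. The groups did not overlap, and the difference was 0.88 (SE 0.13, 1.84-fold, adjusted p = 5.33e-05). Within pEGFR-Lo, replicates 3 and 6 had 9.18 and 9.16, and the other 4 mice had 9.68 to 9.84. These 2 mice were known from earlier results to be low in interferon-stimulated genes, and without them the Nfe2l2 difference was 0.68 (adjusted p = 6.08e-05). Keap1, which encodes the adaptor that brings NRF2 to its ubiquitin ligase, had 7.24, 7.29 and 7.45 in pEGFR-Hi, against 7.07, 7.13 and 7.25 in pEGFR-Lo as lowest, median and highest. Its difference of 0.17 (SE 0.07, interval 0.01 to 0.32) had an adjusted p = 0.0847. Of 14 further regulators of NRF2, 0 were called by limma and 0 by SAM, the permutation method of the study, while 8 had an unadjusted p under 0.05 (3 higher, 5 lower). The MAF partners Maff, Mafg and Mafk were among the 14. Over all 19938 genes, 3871 were higher and 3314 lower at the stricter limit of an adjusted p under 0.05. Counts at an unadjusted p under 0.05, here and below, are to be read beside at least that share. Btrc, a ubiquitin ligase adaptor that can mark NRF2 independently of KEAP1, lay at 7.27 to 7.47 in pEGFR-Hi and 8.03 to 8.26 in pEGFR-Lo, a difference of -0.74 (adjusted p = 4.33e-07) that stayed under the fold limit.

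The enzymes that make glutathione differed little, and the enzyme that recycles it was slightly higher in pEGFR-Hi. Gclc, the catalytic subunit of the rate-limiting enzyme, measured 7.54, 7.72 and 8.11 in pEGFR-Hi mice, against 7.37, 7.65 and 7.80 in pEGFR-Lo mice (lowest, median, highest). The groups overlapped, with a difference of 0.15 (SE 0.10, interval -0.07 to 0.37, adjusted p = 0.292). The modifier subunit Gclm had 8.28, 8.46 and 8.78 in pEGFR-Hi, against 8.39, 8.46 and 8.63 in pEGFR-Lo. With equal medians, its difference was 0.02 (SE 0.09, interval -0.16 to 0.20, adjusted p = 0.903), and -0.01 when arrays were centred on their medians. Gss, which adds glycine in the last step, lay at 6.87, 7.10 and 7.24 in pEGFR-Hi and at 6.95, 7.17 and 7.22 in pEGFR-Lo, a difference of -0.06 (SE 0.08, interval -0.23 to 0.11, adjusted p = 0.636). Intervals for all 3 genes excluded a 2-fold difference. Gsr, the reductase that returns oxidized glutathione to its reduced form, had 9.17, 9.25 and 9.32 in pEGFR-Hi, against 8.57, 8.75 and 9.09 in pEGFR-Lo. Every pEGFR-Hi mouse lay above every pEGFR-Lo mouse, and Gsr was higher by 0.45 (SE 0.10, 1.37-fold, adjusted p = 0.00152). Without pEGFR-Lo replicates 3 and 6 the Gsr difference was 0.36 (adjusted p = 0.0129), which did not pass the p limit of 0.01.

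**Figure D2:**
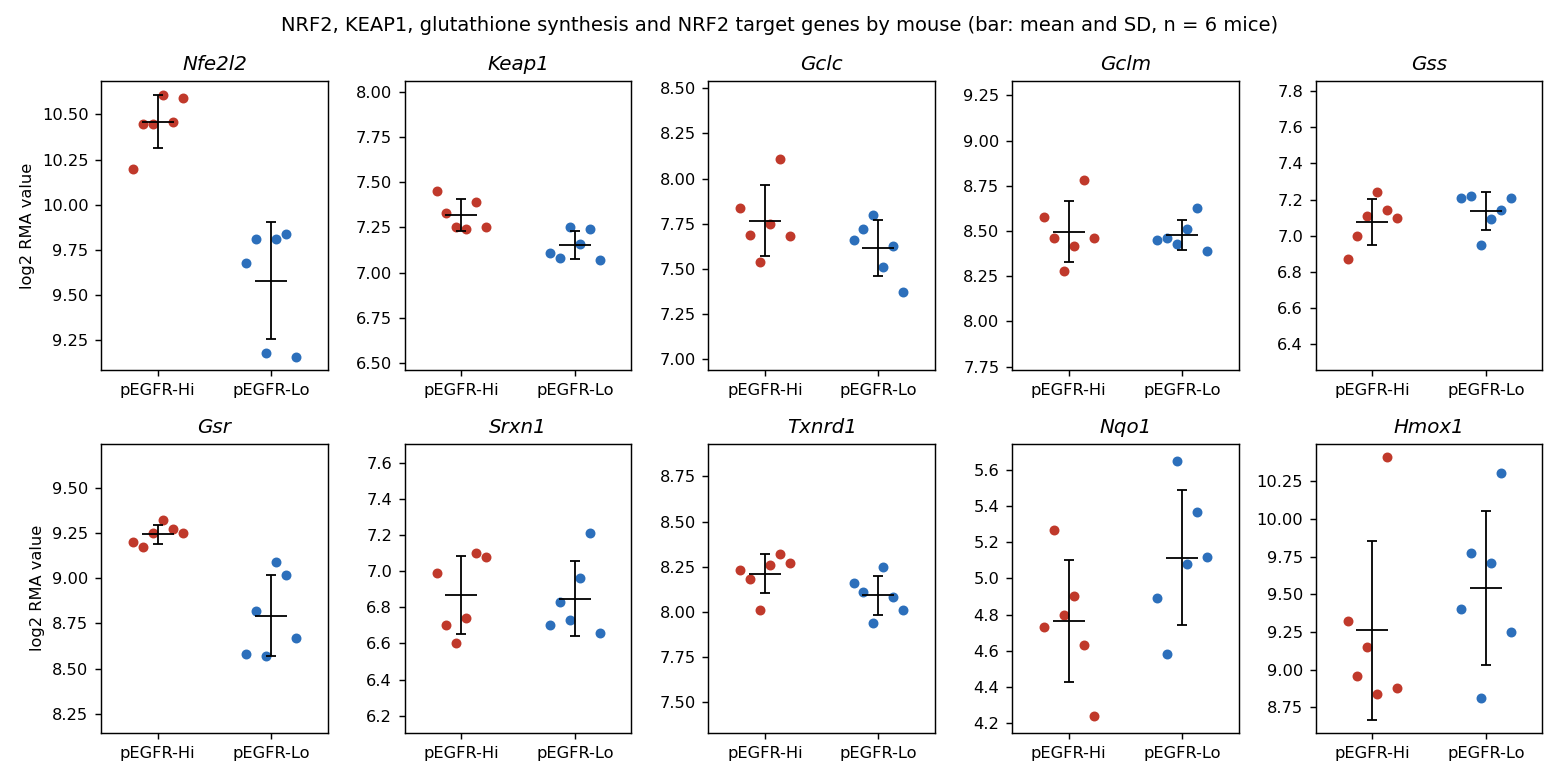
Log2 RMA values by mouse of Nfe2l2, Keap1, the genes of glutathione synthesis and recycling, and 4 genes best known as NRF2 targets, with pEGFR-Hi left of pEGFR-Lo in each panel and bars for the mean and SD (n = 6 mice each). Nfe2l2 and Gsr separate the groups, while in Keap1, Gclc, Gclm, Gss, Srxn1, Txnrd1, Nqo1 and Hmox1 the groups overlap; 1 pEGFR-Hi mouse reaches 10.41 in Hmox1.

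The genes of quinone, heme and iron handling held 0 called genes of 4 by limma or by SAM, and 1, Fth1, had an unadjusted p under 0.05. Nqo1, a quinone reductase widely used as a readout of NRF2, measured 4.24, 4.76 and 5.27 in pEGFR-Hi, against 4.58, 5.10 and 5.65 in pEGFR-Lo as lowest, median and highest. It was not far above background in either group, and its difference was -0.35 (SE 0.18, interval -0.73 to 0.02, adjusted p = 0.141). Hmox1, the heme oxygenase that breaks heme down to biliverdin, carbon monoxide and iron, had 8.84, 9.05 and 10.41 in pEGFR-Hi, against 8.81, 9.55 and 10.30 in pEGFR-Lo. Spread within the groups was wide, and the difference was -0.28 (SE 0.26, interval -0.84 to 0.28, adjusted p = 0.474). Without pEGFR-Hi replicate 5, which held the highest value, the Hmox1 difference was -0.51 (adjusted p = 0.0689). The replicates 3 and 6 of pEGFR-Lo were below the other 4 in Hmox1 as well, at 8.81 and 9.25 against 9.40 to 10.30, and without both the difference was -0.54 (adjusted p = 0.16). Fth1, the heavy chain of the iron store ferritin, lay at 11.99, 12.02 and 12.09 in pEGFR-Hi, against 12.34, 12.42 and 12.49 in pEGFR-Lo. Although the groups did not overlap, Fth1 was lower by only 0.39 on the log2 scale (SE 0.06, 1.31-fold, adjusted p = 1.26e-04). The light chain gene Ftl1 had 11.52, 11.58 and 11.83 in pEGFR-Hi, against 11.26, 11.76 and 11.89 in pEGFR-Lo, with a difference of -0.08 (SE 0.10, interval -0.31 to 0.14, adjusted p = 0.602).

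Glutathione transferases, with 19 genes, held 4 of the 7 called genes (21.1% of the 19, beside 9.05% of all genes) and moved both ways. Among the 13 of them above background, 2 were called higher and 2 lower in pEGFR-Hi, where 13.0% of all genes above background were called. Gsto1, an omega-class enzyme that also reduces dehydroascorbate, measured 6.38, 7.06 and 7.30 in pEGFR-Hi, against 3.77, 4.58 and 5.56 in pEGFR-Lo as lowest, median and highest. The groups were clearly apart, with 6 of 6 pEGFR-Hi mice and 5 of 6 pEGFR-Lo mice above background. Gsto1 was 4.95-fold higher in pEGFR-Hi (2.31 on the log2 scale, SE 0.25, adjusted p = 1.79e-06), and by 2.07 without pEGFR-Lo replicates 3 and 6. Its neighbour on chromosome 19, Gsto2, was not above background in either group. Of 10 measured neighbours of this pair, 2 were called, both in the opposite direction: Sorcs1, a sorting receptor, was at least 11.8-fold lower, its pEGFR-Hi mean not being above background, and Add3, an adducin of the membrane skeleton, was lower by 2.20 on the log2 scale. Stn1 and Slk, on the other side of Gsto1, were higher by 0.85 and 0.69, under the fold limit.

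Both membrane-bound transferases of the set were higher in pEGFR-Hi. Mgst3, which also acts on lipid peroxides and leukotrienes, had 6.41, 7.12 and 7.27 in pEGFR-Hi, against 5.30, 5.98 and 6.06 in pEGFR-Lo. The groups did not overlap, although in each of them 1 mouse lay well below the rest, and Mgst3 was 2.23-fold higher (1.16, SE 0.15, adjusted p = 1.50e-05). Mgst1, an abundant enzyme of the endoplasmic reticulum and outer mitochondrial membrane, measured 9.03, 9.10 and 9.57 in pEGFR-Hi, against 7.66, 8.30 and 8.57 in pEGFR-Lo. It fell just short of the fold limit, at 0.99 (SE 0.15, 1.98-fold, adjusted p = 5.50e-05), and reached that limit when any 1 of 7 mice was left out, namely pEGFR-Hi replicates 1, 2, 3 and 6 and pEGFR-Lo replicates 1, 2 and 3. Without single mice the Mgst1 difference ran from 0.88 to 1.06, and without both pEGFR-Lo replicates 3 and 6 it was 0.90. Gstt1, a theta-class enzyme that acts on small halogenated compounds, was higher by 0.64 (adjusted p = 5.81e-04) with overlapping groups, at 6.44 to 7.22 in pEGFR-Hi and 6.04 to 6.52 in pEGFR-Lo. Gsta4, which detoxifies the lipid peroxidation product hydroxynonenal, was higher by 0.48 (adjusted p = 3.70e-04), at 7.58 to 7.94 in pEGFR-Hi and 7.09 to 7.43 in pEGFR-Lo. The theta-class Gstt3 and the pi-class Gstp1 did not pass, with differences of 0.40 (adjusted p = 0.0195) and -0.24 (adjusted p = 0.0435).

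The mu-class genes, which sit side by side on chromosome 3, held 2 called genes, both lower in pEGFR-Hi, and 2 that were lower under the fold limit. These counts, and those of neighbours below, are to be read beside all genes, of which 5.06% were called lower and 9.05% in either direction. Gstm7 measured 5.39, 5.91 and 7.03 in pEGFR-Hi, against 8.06, 8.52 and 8.95 in pEGFR-Lo, so the highest pEGFR-Hi mouse stayed well below the lowest pEGFR-Lo mouse. Gstm7 was 5.68-fold lower (-2.51, SE 0.25, adjusted p = 6.36e-07). Gstm6 lay at 3.65, 3.77 and 4.23 in pEGFR-Hi, against 5.56, 5.85 and 6.15 in pEGFR-Lo. Only 1 of 6 pEGFR-Hi mice was above background, while 6 of 6 pEGFR-Lo mice were, so Gstm6 was at least 3.40-fold lower by group means (-2.05, SE 0.12, adjusted p = 1.84e-09). Gstm3 had 4.39, 4.73 and 5.09 in pEGFR-Hi, against 5.26, 5.49 and 6.04 in pEGFR-Lo (-0.83, SE 0.13, 1.78-fold, adjusted p = 1.19e-04), and its dimmer probe set gave -0.84. The pEGFR-Hi mean of that dimmer probe set was 3.84, not above background, so its difference is only a bound. Gstm1, the main mu-class enzyme of many tissues, had 9.54, 9.71 and 10.00 in pEGFR-Hi, against 10.29, 10.51 and 10.83 in pEGFR-Lo (-0.80, SE 0.11, 1.74-fold, adjusted p = 1.62e-05). In neither of these 2 genes did the groups overlap, but both stayed under the fold limit. The remaining mu-class genes did not pass the p limit: Gstm5 had a difference of -0.18 (adjusted p = 0.0785), Gstm2 of -0.05 (adjusted p = 0.856), and Gstm4 was not above background. Of the 10 measured neighbours outside the run, 5 on each side, 0 were called by limma or by SAM and 5 had an unadjusted p under 0.05, and their differences ran from -0.54 to 0.47 with a median of -0.03. Mu-class genes are close copies, and whether their probes cross-hybridize was not tested.

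**Figure D3:**
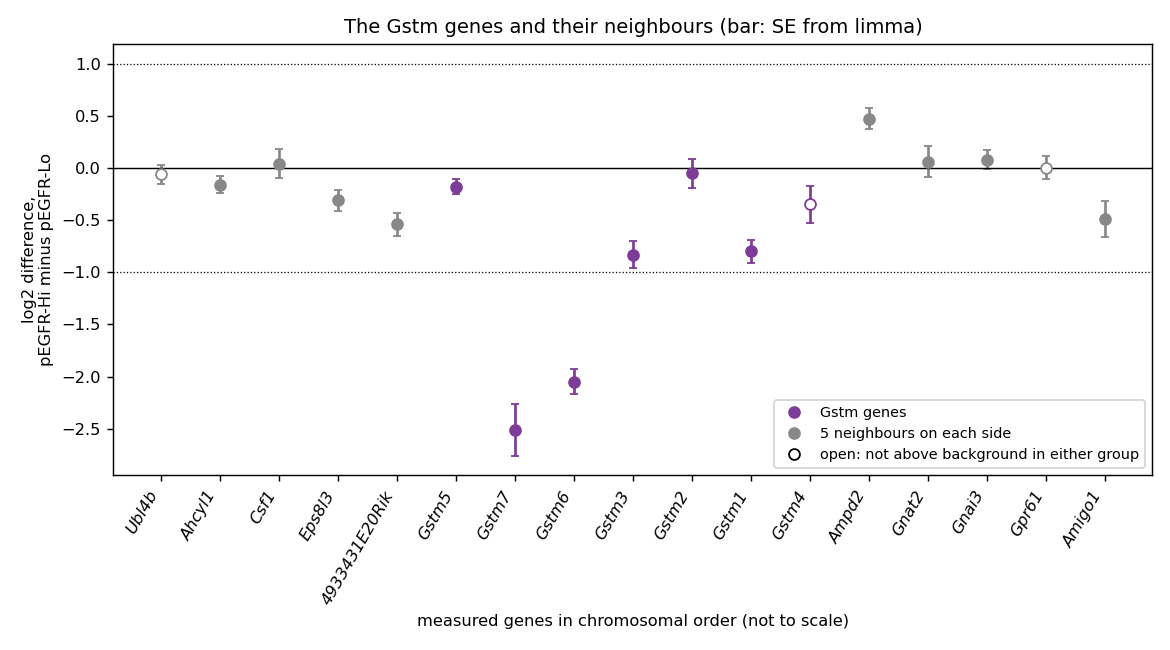
Difference between pEGFR-Hi and pEGFR-Lo on the log2 scale for the Gstm genes and 5 measured neighbours on each side, in chromosomal order and not to scale, with SE bars from limma. Gstm7 (-2.51) and Gstm6 (-2.05) stand apart from the neighbours, which lie between -0.54 and 0.47; open circles are not above background in either group.

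The promoters were searched for the core of the antioxidant response element, spelled TGACNNNGC, on both strands. RefSeq sequence of build GRCm38.p6, from 250 bases before to 50 bases after an annotated start, was at hand for 44 of the 51 genes. The core was found for 9 of them (20.5%), beside 14.0% of 27025 genes with such a window, namely for Gclm, Gsta3, Gstm5, Gstm7, Mgst1, Nfe2l2, Prdx1, Srxn1 and Txnrd1. In Prdx1 alone the match overlapped the AP-1 site TGANTCA, as it did in 0.503% of all genes. A match is a description of the letters and no measure of binding. The 3 genes with a match and an adjusted p under 0.01, namely Nfe2l2 and Mgst1, which were higher, and Gstm7, which was lower in pEGFR-Hi, are shown with the core in capitals. Nfe2l2 (chr2:75704664-75704913, minus strand) and Mgst1 (chr6:138140277-138140526, plus strand) are given as the 250 bases before the start. Their cores begin 240 and 56 bases before it, and that of Mgst1 is on the opposite strand, where it reads TGACCGTGC. Gstm7 (chr3:107931726-107931752, minus strand) is given as 27 bases, since its core lies 129 bases before 1 annotated start and 74 bases after another.
Nfe2l2: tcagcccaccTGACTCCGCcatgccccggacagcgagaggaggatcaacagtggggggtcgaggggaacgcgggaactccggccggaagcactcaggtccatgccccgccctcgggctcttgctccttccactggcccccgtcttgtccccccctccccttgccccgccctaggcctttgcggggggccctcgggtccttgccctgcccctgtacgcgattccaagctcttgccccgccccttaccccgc
Mgst1: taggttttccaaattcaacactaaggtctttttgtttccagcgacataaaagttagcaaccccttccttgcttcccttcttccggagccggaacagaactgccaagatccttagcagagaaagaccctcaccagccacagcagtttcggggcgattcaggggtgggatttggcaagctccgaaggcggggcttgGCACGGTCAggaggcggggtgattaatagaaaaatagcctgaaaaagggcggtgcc
Gstm7: ctgaagaccTGACAAAGCgaagccaat

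Among the 8 glutathione peroxidases, which are selenoproteins in part, 1 was called (12.5%, beside 9.05% of all genes). Gpx3, the secreted peroxidase of plasma, measured 4.88, 5.56 and 6.05 in pEGFR-Hi, against 3.63, 4.15 and 4.40 in pEGFR-Lo as lowest, median and highest. All 6 pEGFR-Hi mice were above background, as were 3 of 6 pEGFR-Lo mice, and Gpx3 was 2.62-fold higher in pEGFR-Hi (1.39, SE 0.20, adjusted p = 3.03e-05). Gpx8, a peroxidase of the endoplasmic reticulum, was higher by 0.48 (1.40-fold, adjusted p = 0.00251), with pEGFR-Hi mice at 8.71 to 9.16 and pEGFR-Lo mice at 8.22 to 8.73. The cytosolic Gpx1 had a difference of -0.19 (interval -0.35 to -0.03, adjusted p = 0.0688). Gpx4, which removes peroxides from membrane lipids and guards against ferroptosis, had a difference of 0.04 (interval -0.13 to 0.20, adjusted p = 0.781), and 0.05 in its other probe set. Values of Gpx4 ran from 10.49 to 10.76 in pEGFR-Hi and from 10.48 to 10.80 in pEGFR-Lo.

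Of the 11 peroxiredoxin, thioredoxin and sulfiredoxin genes, all above background, Txn2 was the only one called (9.09%, beside 9.05% of all genes). Txn2, the thioredoxin of mitochondria, measured 9.22, 9.45 and 9.51 in pEGFR-Hi, against 10.25, 10.49 and 10.71 in pEGFR-Lo. The groups lay far apart relative to their spread, and Txn2 was 2.08-fold lower (-1.06, SE 0.09, adjusted p = 1.39e-07). Txn2 lies on chromosome 15, where the 550 genes above background had a median difference of -0.27, beside 0.03 over all genes above background, and the part of this shift in the Txn2 value was not tested. Of its 10 measured neighbours, 0 were called by limma or by SAM and 4 had an unadjusted p under 0.05, and they lay between -0.99 and 0.76. The lowest of these values was that of Apol7c, which was not above background in either group. Among the neighbours above background, the lowest was Ift27 at -0.34. Txnrd2, the reductase of Txn2, had a difference of -0.20 (adjusted p = 0.216). The cytosolic thioredoxin Txn1 ran from 11.86 to 12.03 in pEGFR-Hi and from 11.86 to 12.06 in pEGFR-Lo, a difference of 0.01 (interval -0.14 to 0.15, adjusted p = 0.948), and its reductase Txnrd1 had a difference of 0.12 (interval -0.05 to 0.29, adjusted p = 0.269). Txnrd3, a reductase best known from testis, had a difference of 0.31 (adjusted p = 0.065). Srxn1, which restores overoxidized peroxiredoxins, had 6.60, 6.87 and 7.10 in pEGFR-Hi, against 6.66, 6.78 and 7.21 in pEGFR-Lo (0.02, SE 0.12, interval -0.23 to 0.27, adjusted p = 0.926), and -0.01 when arrays were centred on their medians.

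Peroxiredoxins, which reduce peroxides with thioredoxin, differed by less than 2-fold. Prdx2, abundant in the cytosol, was lower by 0.40 on the log2 scale (adjusted p = 4.53e-04), at 10.39 to 10.57 in pEGFR-Hi and 10.69 to 11.03 in pEGFR-Lo, and its other probe set gave -0.67. Prdx4, the form of the endoplasmic reticulum, was lower by 0.24 (adjusted p = 0.00889), at 10.10 to 10.17 in pEGFR-Hi and 10.29 to 10.55 in pEGFR-Lo. In both genes every pEGFR-Hi mouse was below every pEGFR-Lo mouse. Prdx1 had a difference of -0.23 (adjusted p = 0.0157), with -0.29 in its other probe set, and the mitochondrial Prdx3 of 0.15 (adjusted p = 0.253). The pseudogene Prdx6-ps2 had -0.18 (adjusted p = 0.141).

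Catalase and both superoxide dismutases of the set were lower in pEGFR-Hi, and 1 of them was called. Sod3, the extracellular dismutase that binds to heparan sulfate of the matrix, measured 4.07, 4.46 and 4.67 in pEGFR-Hi, against 5.59, 6.04 and 6.42 in pEGFR-Lo as lowest, median and highest. The groups did not overlap, with 5 of 6 pEGFR-Hi mice and 6 of 6 pEGFR-Lo mice above background, and Sod3 was 3.02-fold lower (-1.59, SE 0.15, adjusted p = 3.58e-07). The mitochondrial Sod2 had 7.30, 7.54 and 7.84 in pEGFR-Hi, against 7.82, 8.09 and 8.31 in pEGFR-Lo, and was lower by 0.50 on the log2 scale (SE 0.11, 1.42-fold, adjusted p = 0.00161). Cat, the catalase of peroxisomes, had 8.50, 8.70 and 8.95 in pEGFR-Hi, against 8.95, 9.25 and 9.45 in pEGFR-Lo (-0.53, SE 0.10, 1.44-fold, adjusted p = 3.22e-04). In Sod2 and Cat the groups overlapped at their edges. Sod1, the cytosolic dismutase, is outside the rule and differed the other way: it lay at 11.36 to 11.50 in pEGFR-Hi and 10.77 to 10.92 in pEGFR-Lo and was higher by 0.59 (1.51-fold, adjusted p = 2.11e-06). Sod1 lies on chromosome 16, where the 436 genes above background had a median difference of 0.13, beside 0.03 over all genes above background. This median covers the whole chromosome and may differ from that of the stretch around Sod1, which was not examined. The part of such a shift in the Sod1 value was not tested.

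**Figure D4:**
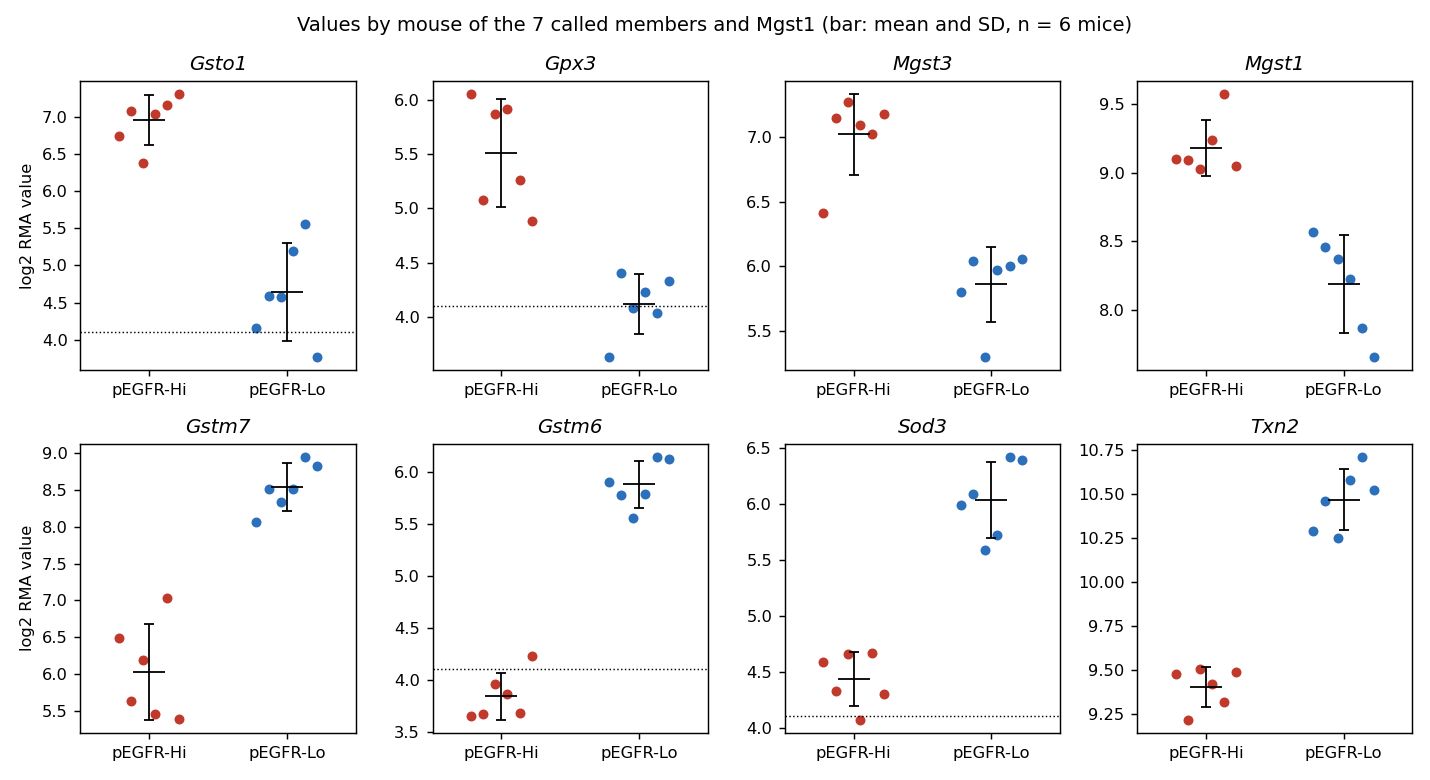
Log2 RMA values by mouse of the 7 called genes and of Mgst1, which was just under the fold limit, with pEGFR-Hi left of pEGFR-Lo and bars for the mean and SD (n = 6 mice each). The groups are apart in every panel; the dotted line marks the background level of 4.10, which only Gstm6 fails to exceed by its pEGFR-Hi mean.

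The other genes of these pathways were taken from 10 lists with 149 measured genes, of which 8 were called higher and 9 lower in pEGFR-Hi (11.4%, beside 9.05% of all genes). In the list of other NRF2 target enzymes and exporters, 4 of 19 were higher and 1 lower. Akr1b8, an aldo-keto reductase that clears reactive aldehydes, lay at 8.54 to 9.19 in pEGFR-Hi and 5.38 to 6.54 in pEGFR-Lo and was 7.80-fold higher (adjusted p = 3.30e-09). Pir, an iron-binding nuclear protein, was 3.91-fold higher (adjusted p = 5.11e-09), with 3 of 6 pEGFR-Lo mice above background. Blvrb, which reduces biliverdin, was 2.17-fold higher (adjusted p = 2.19e-06), and so was Cbr1, a carbonyl reductase, by 3.33-fold (adjusted p = 3.62e-05). Cbr1 lies on chromosome 16 like Sod1, where the median difference over the whole chromosome was 0.13. The stretch around Cbr1 was not examined, and the part of such a shift was not tested. The heme transporter Slc48a1, on chromosome 15 like Txn2, was 2.21-fold lower (adjusted p = 2.40e-06). Ephx1, an epoxide hydrolase, was lower by 0.97 on the log2 scale (adjusted p = 4.06e-05), under the fold limit. Ephx1, Cbr1, Sod1, Btrc, Tfrc, Slc39a14 and Eefsec were named after their values were seen.

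Of 17 genes of cystine uptake and glutathione supply and turnover, 2 were higher and 0 lower by limma and by SAM. Over all genes, limma called 3.99% higher and 5.06% lower. At an unadjusted p under 0.05, 7 of the 17 were higher and 4 lower. Slc1a5, a carrier of glutamine and other neutral amino acids, lay at 8.89 to 9.54 in pEGFR-Hi and 6.97 to 7.76 in pEGFR-Lo and was 3.55-fold higher (adjusted p = 3.56e-08). Anpep, an aminopeptidase that trims peptides at the cell surface, was at least 2.38-fold higher (adjusted p = 9.91e-07), since 0 of 6 pEGFR-Lo mice were above background. The cystine carrier Slc7a11 had 6.89 to 7.80 in pEGFR-Hi and 6.37 to 7.55 in pEGFR-Lo, a difference of 0.42 (adjusted p = 0.132), and was also named after its value was seen. Among 14 genes of NADPH supply, the malic enzyme Me1 was 2.79-fold lower (adjusted p = 3.34e-08) and 13 were not called. A list of 11 genes held other glutathione transferases together with further genes such as Clic1, Clic4, Gdap1 and Vars. Of these, Gstk1, the kappa-class enzyme of mitochondria and peroxisomes, was 2.16-fold higher (adjusted p = 5.22e-05) and 10 were not called. Hpgds and Gdap1 were not above background in either group.

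Glutaredoxins and thioredoxin partners gave 1 higher and 3 lower genes of 21, beside 3.99% and 5.06% of all genes. Msrb3, a methionine sulfoxide reductase, was 2.55-fold higher in pEGFR-Hi (adjusted p = 1.04e-07). Txnip, which binds and inhibits thioredoxin, was 2.99-fold lower (adjusted p = 1.79e-05), at 6.69 to 8.05 in pEGFR-Hi and 8.45 to 9.20 in pEGFR-Lo. Glrx, a cytosolic glutaredoxin, was 2.42-fold lower (adjusted p = 2.14e-04), and Sesn3, a stress-responsive sestrin, 2.03-fold lower (adjusted p = 2.32e-08). The Sesn3 difference was -0.98 without pEGFR-Hi replicate 4, under the fold limit.

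Of the genes of metal handling, 1 of 17 in iron handling and ferroptosis and 1 of 4 metallothioneins were called. A list of selenoproteins and genes of their synthesis held 2 called genes of 18. Each called gene was lower in pEGFR-Hi, beside 5.06% of all genes. The 2 of the selenoprotein list were the selenoproteins Selenop and Dio2, and the other 16 were not called. At an unadjusted p under 0.05, 4 were higher and 6 lower in the iron list, and 3 were higher and 8 lower in the selenoprotein list. Among those under the fold limit, the transferrin receptor Tfrc was higher by 0.68 (adjusted p = 3.00e-04), the metal carrier Slc39a14 by 0.75 (adjusted p = 7.50e-04), and Eefsec, the elongation factor for selenocysteine, by 0.82 (adjusted p = 2.23e-06). Tfrc is also on chromosome 16, where the median difference over the whole chromosome was 0.13. Cp, ceruloplasmin, a copper ferroxidase that astrocytes carry on their surface, lay at 5.35 to 6.34 in pEGFR-Hi and 9.31 to 9.73 in pEGFR-Lo and was 13.4-fold lower (adjusted p = 8.37e-12). Mt3, the brain metallothionein, was 4.33-fold lower (adjusted p = 9.25e-06), and the other 3 metallothioneins were not called. Selenop, which carries selenium between cells and is also on chromosome 15, where the median difference was -0.27, was 2.97-fold lower (adjusted p = 7.43e-09), and Dio2, a deiodinase known from astrocytes, was at least 5.01-fold lower (adjusted p = 5.43e-06), with 2 of 6 pEGFR-Hi mice above background. Markers of astrocytes were lower as a list mean, at 6.34 to 6.62 in pEGFR-Hi and 7.27 to 7.74 in pEGFR-Lo, and their part in the values of Cp, Mt3, Selenop and Dio2 was not tested. Of 14 genes of oxidant sources, such as NADPH oxidase subunits, 0 were called by limma or by SAM, and 4 were higher and 2 lower at an unadjusted p under 0.05. Only 5 of the 14 were above background in each group. Nox1, Nox3, Nox4, Cybb, Ncf4, Duox1, Duox2, Xdh and Maob were not above it in either group, so a difference in them could hardly be seen.

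Spread among mice was similar in the groups, with a median SD over the 41 genes above background of 0.17 in pEGFR-Hi and 0.18 in pEGFR-Lo. The SD was larger in pEGFR-Lo for 27 of the 41. Extreme values gathered in some mice. Replicate 5 was the highest of the pEGFR-Hi mice in 16 of the 41 genes (39.0%, beside 17.2% of all genes above background). In pEGFR-Lo, replicate 5 was the highest in 19 (46.3%, beside 22.4%) and replicate 3 the lowest in 17 (41.5%, beside 22.8%). The pEGFR-Lo replicates 3 and 6 were both below the other 4 mice in 7 of the 51 genes and both above them in 3, namely Gstt3, Txnrd2 and Txnrd3. The 7 include Gstt2, at 3.59 and 3.52 in these mice, which was not above background in either group. The same count was not made over all genes, so whether 7 and 3 exceed the usual share was not tested. Without pEGFR-Lo replicates 3 and 6 the genes called remained 3 higher and 4 lower by number.

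Markers of other cells in the brain were given beside these results, and their part in them was not tested. Counts of called markers are to be read beside all genes, of which 3.99% were called higher and 5.06% lower. Of 12 astrocyte markers, 1 was higher (Gfap) and 4 lower (Slc1a2, Slc1a3, Gja1 and S100b) in pEGFR-Hi. Their summed level was 12.59 to 12.93 on the log2 scale in pEGFR-Hi and 12.97 to 13.10 in pEGFR-Lo, and the mean of their log2 values was 6.34 to 6.62 in pEGFR-Hi and 7.27 to 7.74 in pEGFR-Lo. The differences reached -4.32 for S100b and -3.77 for Slc1a3, and Aldh1l1 and Gjb6 were not above background. Of 15 microglia and macrophage markers, 9 were above background in each group, with Cd68 higher and P2ry12 lower. Cx3cr1 averaged 5.28 in pEGFR-Hi and 5.13 in pEGFR-Lo, Trem2 5.02 and 5.05, and Tmem119 4.56 and 4.91, while Aif1, Csf1r, Itgam, Ptprc, Ctss and Adgre1 were not above background in either group. The summed level of this list was 8.27 to 8.62 in pEGFR-Hi and 8.33 to 8.82 in pEGFR-Lo. Of 13 endothelial and mural markers, Rgs5 was lower, and Pecam1, Cdh5, Tek, Esam, Slco1a4 and Pdgfrb were not above background, with a summed level of 7.56 to 8.04 in pEGFR-Hi and 7.84 to 9.34 in pEGFR-Lo. Of 10 oligodendrocyte markers, Cnp was higher and Ermn lower, and Mog, Mag, Mobp, Opalin and Aspa were not above background, with a summed level of 9.47 to 10.20 in pEGFR-Hi and 8.57 to 9.18 in pEGFR-Lo. The mean of their log2 values ran the other way, at 4.33 to 4.44 in pEGFR-Hi and 4.46 to 4.65 in pEGFR-Lo, and Cnp was the brightest of them, with a mean of 9.66 in pEGFR-Hi and 8.24 in pEGFR-Lo. Of 5 erythroid and 12 neuron markers, 0 were called by limma or by SAM, and 1 and 5 had an unadjusted p under 0.05. Only 4 and 6 of these markers were above background in each group. Interferon-stimulated genes moved with the groups, 14 of 17 being higher in pEGFR-Hi, with a summed level of 12.66 to 13.57 in pEGFR-Hi and 9.75 to 11.80 in pEGFR-Lo.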

How the data were processed

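RNA of ZsGreen-sorted tumor cells was measured on 12 arrays, 6 of pEGFR-Hi and 6 of pEGFR-Lo mice, with groups and replicate numbers from the sample labels. The authors deposited log2 values made from Affymetrix Mouse Gene ST arrays with RMA in Affymetrix Expression Console, as the submitters' processing notes name them, with no version given in the sources used here. Array medians lay between 4.81 and 4.88. Since RMA equalizes arrays, a change in total RNA per cell cannot be seen.

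Of 35556 probe sets, 21789 had 1 gene symbol, 1621 several and 12146 none, and only those with 1 were named. Symbols were updated through RefSeq for 21698. For 999 genes with several probe sets the brightest was used, which left 19938 genes. For 4 of the 51 genes (Gpx4, Gstm3, Prdx1 and Prdx2) a second probe set gave the same direction. A further 10 probe sets of the set's families with several symbols were not used.

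The groups were compared with limma 3.58.1 in R 4.3.3 (lmFit and eBayes), with Benjamini-Hochberg adjustment over all 19938 genes, in code tested on simulated data. Figures and tables used Python 3.11.15, pandas 2.3.3 and matplotlib 3.10.9. Where the dimmer group's mean was not above background, the fold was computed with each of its arrays raised to at least the background level. Of the 51 genes, the text gives full values for those called, the 16 named directly and those at least 1.5-fold apart with groups that do not overlap, and of each pathway list, up to 3 called genes a direction. Other genes with values were chosen after these were seen. Those genes, lists and tests were chosen with earlier results of these data known. The study's methods used SAM with the same fold limit and a false discovery rate of 1%, which was rewritten here with 100 permutations as an alternative. Other alternatives were a block for the replicate number, array weights, a robust eBayes fit with a trend, quantile normalization or median centring of the deposited values, dropping dim genes, other thresholds, the mean of probe sets, and fits without single arrays or without pEGFR-Lo replicates 3 and 6. A planned comparison of the proteins was not run, since protein sequences were not used here.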

Additional observations from a re-analysis of the deposited data

Results flagged for a closer look

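In each group of 6 mice, the highest and lowest value of the 41 genes above background was compared with the next one, and 5 of 82 groups held a mouse whose gap took up more of the group's range than Dixon's limit for 6 values allows. Chance alone gives about 1 in 20 groups. Hmox1 stood at 10.41 in pEGFR-Hi replicate 5, with the next mouse at 9.32. Mgst3 was low in 1 mouse of each group, at 6.41 in pEGFR-Hi replicate 1 (next mouse 7.02) and at 5.30 in pEGFR-Lo replicate 3 (next mouse 5.80). Ftl1 was low in pEGFR-Lo replicate 3, at 11.26 (next mouse 11.71). Txnrd2 was high in pEGFR-Lo replicate 6, at 6.57 (next mouse 6.13).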

How the results depend on the processing

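The 3 higher and 4 lower genes of the set were counted again under SAM (3 and 4, of 801 and 1009 genes in all), with the replicate number as a block (3 and 4, of 801 and 1008), and after other normalizations, filters and weights, always within 1.5 times. Removing the fold limit moved the counts: at an adjusted p under 0.01 to 9 and 11 (2933 and 2574 of all genes, 26 and 30 of the pathway lists), and at 0.05 to 11 and 13 (3871 and 3314, 36 and 36). Leaving out each mouse in turn gave 3 to 4 higher and 4 lower genes of the set, 774 to 846 and 991 to 1031 of all genes, 8 to 9 and 8 to 10 of the pathway lists, and a median difference of -0.08 to -0.04. Srxn1 and Gclm, near 0, changed sign: Srxn1 was -0.03 after another quantile normalization, -0.01 after centring on medians and -0.06 without pEGFR-Lo replicates 3 and 6, and Gclm was -0.01 and -0.02 in the last 2 of these. Without single mice they ran from -0.04 to 0.06 for Gclm and from -0.03 to 0.09 for Srxn1; the cause was not tested. The replicate numbers did not pair the mice, since same-numbered mice had correlations of deviations from -0.137 to 0.097 and 1 of 6 correlated best with its own number. With 6 arrays a group and 1 line each, genes near background, such as Gstm6 and Gpx3 in their dimmer group, have the least certain fold.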
